A study of Homo sapiens with 12 samples.

Results

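The 9 genes described here are NFE2L2, which encodes the transcription factor NRF2, KEAP1, which encodes the adaptor that keeps NRF2 low, and 7 genes that NRF2 is known to switch on outside glutathione and iron metabolism, NQO1, TXNRD1, TXN, SRXN1, PGD, ME1 and OSGIN1. They are a list of names, with no limit on their measured values, drawn up with earlier results of these data known. All 9 were found by Entrez identifier among the 26258 genes of the deposited expression table, and all 9 were among the 13515 genes that could be tested. The RNA came from HLE, an established human hepatocellular carcinoma (HCC) cell line, and was sequenced after poly(A) selection. Cells received a control siRNA (siCtrl), siRNA against both YAP and TAZ (siY/T, the transcriptional co-activators encoded by YAP1 and WWTR1) or siRNA against the stress-response transcription factor ATF4 (siATF4), and each was then given the solvent DMSO or 5 µM Sorafenib (Srf), a multikinase inhibitor used in HCC. The dose is that of the labels, and the study's text gives a different dose for this sequencing. This gave 6 groups of 2 libraries, 12 in all, every one from the same cell line and every one transfected. The study asked how YAP/TAZ and ATF4 let HCC cells withstand Sorafenib. Here the same libraries are read for the level of the NRF2 genes.

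In unstressed cells KEAP1 brings NRF2 to a ubiquitin ligase built on cullin 3, and NRF2 is degraded. Oxidants and electrophiles modify cysteines of KEAP1, NRF2 then escapes, pairs with small MAF proteins in the nucleus and binds antioxidant response elements near its target genes. Because this control acts mostly on the protein, the mRNA level of NFE2L2 is not a reading of NRF2 activity, and some liver tumours carry changes in NFE2L2 or KEAP1.

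Library depth ran from 41408348 to 53619732 reads on genes, so 1 read was worth 0.0186 to 0.0241 CPM (counts scaled to 1000000 reads per library). The lowest of the 9 genes, OSGIN1, still had at least 170 reads in every library. Replicate libraries differed by an SD across genes of 0.0817 to 0.107 (log2) in 5 groups, and of 0.179 in siY/T cells with DMSO. The siRNA targets were lower where the labels say so. In DMSO, YAP1 was 278 ± 2.04 CPM with siCtrl and 52.1 ± 7.83 with siY/T, WWTR1 was 171 ± 2.36 and 61.0 ± 10.8, and ATF4 was 248 ± 0.204 with siCtrl and 98.5 ± 3.13 with siATF4 (mean ± SD, n = 2). In Sorafenib ATF4 was 488 ± 5.68 CPM with siCtrl, 315 ± 2.33 with siY/T and 87.6 ± 4.25 with siATF4. WWTR1 was also lower with siATF4 in DMSO, at 106 CPM (log2 fold change -0.70, limma, adjusted p = 1.29e-05), and in Sorafenib its change was -0.09 (adjusted p = 0.369). Of 8 liver markers, 6 (ALB, TTR, APOA1, APOB, AFP and HNF4A) stayed under 1 CPM in every library. The summed liver markers were 368 to 431 CPM with siCtrl in DMSO, 174 to 177 with siCtrl in Sorafenib, 227 to 269 with siY/T and 64.6 to 72.3 with siATF4. Nearly all of that sum was FGB, a fibrinogen chain, while SERPINA1, the other liver marker tested, rose with siY/T in DMSO from 0.189 to 1.98 CPM (log2 fold change 1.84, adjusted p = 1.12e-06). The 4 epithelial markers summed to 978 to 1339 CPM with siY/T and 2140 to 3333 otherwise, with EPCAM under 1 CPM throughout, and the 3 mesenchymal markers to 1999 to 3001 CPM. The epithelial sum was almost wholly the keratins KRT8 and KRT18, and CDH1, which encodes E-cadherin, rose against that sum with siY/T in DMSO, from 0.803 to 2.14 CPM (1.02, adjusted p = 0.000167). In siCtrl cells Sorafenib raised CDH1 to 6.19 CPM (2.37, adjusted p = 1.06e-07). The other cell markers summed to 47.4 to 83.2 CPM, with the defining leukocyte and endothelial markers PTPRC and PECAM1 under 1 CPM in every library. Within that sum CD68, a macrophage marker, rose with siATF4 in DMSO from 20.4 to 73.5 CPM (1.82, adjusted p = 1.30e-09) and COL1A1, a collagen chain, fell from 28.7 to 6.20 CPM (-2.13, adjusted p = 3.06e-10). The part that these shifts have in the results on the 9 genes was not tested, and in bulk RNA fewer cells of a type and less RNA per cell cannot be told apart.

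On GRCh37, the build of the deposited table, the regulators lie at chr2:178083395-178257484 on the minus strand (NFE2L2, Entrez 4780) and at chr19:10596801-10614234 on the minus strand (KEAP1, Entrez 9817). The thioredoxin system is at chr12:104609557-104744085 on the plus strand (TXNRD1, Entrez 7296), chr9:113006090-113018787 on the minus strand (TXN, Entrez 7295) and chr20:627259-633844 on the minus strand (SRXN1, Entrez 140809). The NADPH enzymes are at chr1:10458649-10480568 on the plus strand (PGD, Entrez 5226) and chr6:83920121-84140770 on the minus strand (ME1, Entrez 4199). NQO1 (Entrez 1728) is at chr16:69740899-69760571 on the minus strand and OSGIN1 (Entrez 29948) at chr16:83964916-83999937 on the plus strand. These are spans of whole genes in the GENCODE annotation, exons and introns together, and the values count reads on exons. The span of NFE2L2 overlaps HNRNPA3 and AGPS on the opposite strand, with mean levels of 161 and 85.6 CPM, and that of OSGIN1 overlaps MLYCD on the same strand, at 6.33 CPM. The counted exons were those of RefSeq, which may differ from these GENCODE spans, and whether they overlap exons of these neighbours was not examined. The strand setting of the counting was not given in the sources used here. Where counted exons do overlap, their reads cannot be told apart.

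Per kilobase of the canonical transcript, the mean level over the 12 libraries was highest for TXN, the small redox protein thioredoxin, at 198 CPM per kb. SRXN1, the sulfiredoxin that repairs over-oxidised peroxiredoxins, stood at 77.2 CPM per kb. NQO1, a quinone reductase, was at 66.1, PGD, an NADPH-making enzyme of the pentose phosphate pathway, at 61.4, and TXNRD1, the cytosolic reductase that recharges thioredoxin with NADPH, at 60.7 CPM per kb. KEAP1 was at 32.0 and NFE2L2 at 22.2 CPM per kb, and the lowest were ME1, the cytosolic malic enzyme that makes NADPH, at 6.95 and OSGIN1, an oxidative-stress-induced growth inhibitor, at 3.87 CPM per kb. The ratio of the highest to the lowest group mean was 3.32 for SRXN1, 3.12 for OSGIN1 and 3.05 for NQO1. It was 2.34 for TXNRD1, 2.06 for TXN, 2.04 for ME1, 1.72 for PGD and 1.63 for KEAP1. The gene of the transcription factor itself, NFE2L2, varied least of the 9 across the groups, with a ratio of 1.39.

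**Figure D1:**
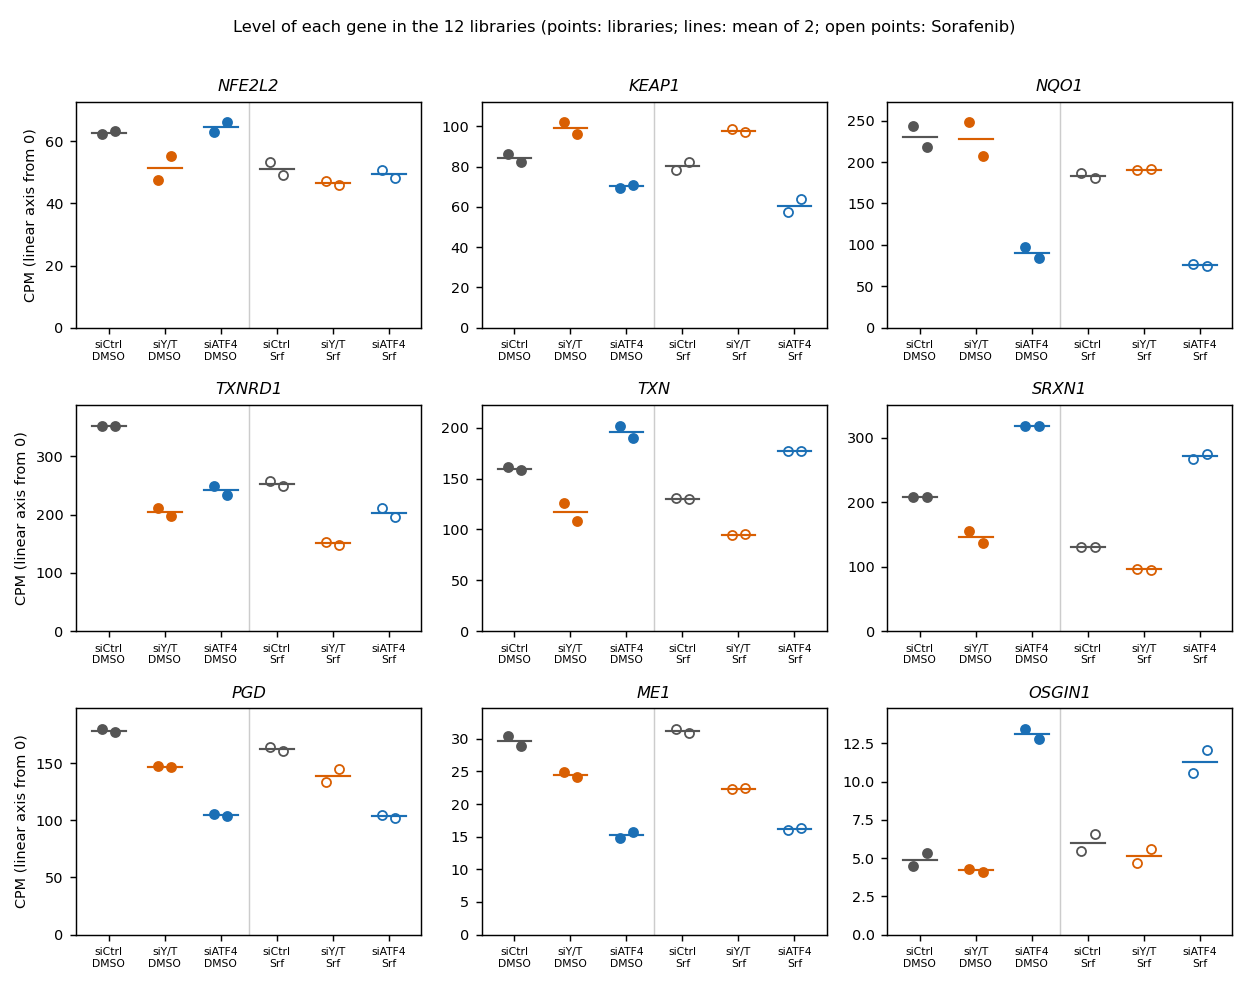
Level of each of the 9 genes in the 12 libraries, in CPM on linear axes from 0, with 1 panel per gene, points for libraries (filled for DMSO, open for Sorafenib) and lines for the mean of 2. NQO1, PGD and ME1 were lowest and SRXN1, TXN and OSGIN1 highest in the siATF4 groups, while TXNRD1 was highest in siCtrl cells with DMSO, at 353 CPM in both libraries.

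The letters of the antioxidant response element core, TGACNNNGC, were searched on both strands of the RefSeq promoter windows of GRCh38.p14, which run from 250 bases before to 50 bases after a start site. All 9 genes matched, with 12 windows between them, and 5 windows of 4 genes (KEAP1, TXNRD1, PGD and ME1) held the core, against 13.3% of all windows and 14.4% of windows of tested genes. Counted by gene, 19.3% of the tested genes with a window held it. The matches are printed below 5′ to 3′ on the strand that carries the core, with the core in capitals, because they show which letters fill the free positions in the members that have it. The 2 KEAP1 stretches overlap on the genome, and the third TXNRD1 stretch belongs to another start site than the first pair.
KEAP1 at chr19:10502807-10502835, minus strand: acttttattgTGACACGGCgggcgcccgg
KEAP1 at chr19:10502784-10502812, plus strand: caggtcaccaTGACTAAGCagagccgggc
TXNRD1 at chr12:104215670-104215698, plus strand: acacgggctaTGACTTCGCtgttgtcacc
TXNRD1 at chr12:104215761-104215789, minus strand: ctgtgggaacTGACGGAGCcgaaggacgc
TXNRD1 at chr12:104286920-104286948, minus strand: agagtcagaaTGACAAAGCagaaatccac
PGD at chr1:10398853-10398881, minus strand: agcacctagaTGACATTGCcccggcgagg
ME1 at chr6:83431170-83431198, minus strand: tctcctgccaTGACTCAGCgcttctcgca
ME1 at chr6:83431022-83431050, plus strand: gctgctggggTGACGGTGCtgactgcagc
The ATF4-C/EBP letters TGATGNAA were in 0 of the 12 windows, against 3.62% of all windows, and the TEAD letters GGAATG, read by the partners of YAP/TAZ, were in 1 window, that of SRXN1, against 14.0% of all windows. These are matches of letters in a short window and say nothing of binding, and a window without a match says nothing of sites elsewhere.

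Loss of YAP/TAZ lowered the thioredoxin genes TXNRD1, TXN and SRXN1, while NQO1 did not pass the test. Changes are given as log2 fold changes on the log2(CPM + 0.5) scale, "called" means an unadjusted p under 0.05 with a log2 fold change of at least 0.58 in size, and "rose" and "fell" are used for a Benjamini-Hochberg adjusted p under 0.05 in limma, adjusted over all 13515 tested genes. In DMSO 1 of the 9 genes was called, and it was lower, where 3.61% of all tested genes were called lower and 11% higher. By adjusted p alone 6 fell and 1 rose, where 22.8% of all tested genes fell and 37.3% rose, and the median change of the 9 was -0.28, against 0.07 over all tested genes. TXNRD1 was the called gene. Its levels in DMSO were 353 and 353 CPM with siCtrl and 211 and 197 CPM with siY/T, and in Sorafenib they were 258 and 249 CPM with siCtrl and 153 and 148 CPM with siY/T. No siY/T library of TXNRD1 reached any siCtrl library of the same treatment. The fall was -0.79 (SE 0.0497, adjusted p = 4.44e-08) in DMSO and -0.75 (adjusted p = 1.16e-07) in Sorafenib.

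Thioredoxin itself followed. TXN was at 161 and 159 CPM with siCtrl and 126 and 108 CPM with siY/T in DMSO, and at 131 and 130.1 CPM against 94.2 and 95.8 CPM in Sorafenib. It fell by 0.45 in both treatments (SE 0.0589, adjusted p = 2.42e-05 and 3.62e-05). SRXN1 was at 208 and 208 CPM with siCtrl and 155 and 137 CPM with siY/T in DMSO, and at 131 and 131 CPM against 96.4 and 95.5 CPM in Sorafenib. In both treatments the siY/T libraries of TXN and SRXN1 lay below the siCtrl libraries of the same treatment. SRXN1 fell by 0.51 in DMSO (adjusted p = 1.85e-06) and by 0.45 in Sorafenib (adjusted p = 1.00e-05). Neither gene was called at the fold used, except that SRXN1 passed it in DMSO, at -0.60, without siY/T DMSO replicate 1, and with DESeq2.

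The NADPH enzymes fell less. PGD was at 180.0 and 177 CPM with siCtrl and 148 and 146 CPM with siY/T in DMSO, a change of -0.28 (SE 0.0440, adjusted p = 0.000122), and it changed by -0.22 in Sorafenib (adjusted p = 0.00111). ME1 was at 30.4 and 28.8 CPM with siCtrl and 24.9 and 24.1 CPM with siY/T in DMSO, a change of -0.27 (SE 0.0571, adjusted p = 0.00126). In Sorafenib ME1 was at 31.5 and 30.9 CPM against 22.2 and 22.5 CPM, a change of -0.47 (adjusted p = 2.01e-05). The libraries of the groups compared did not overlap for either gene. NQO1 did not pass the test, with 243 and 218 CPM for siCtrl and 248 and 207 CPM for siY/T in DMSO, a change of -0.02 with a 95% interval of -0.20 to 0.15, and a change of 0.05 (adjusted p = 0.607) in Sorafenib. OSGIN1, at 4.48 and 5.30 CPM with siCtrl and 4.29 and 4.11 CPM with siY/T in DMSO, changed by -0.19 (SE 0.115, adjusted p = 0.160) and did not pass either. Under quantile normalization the DMSO change of OSGIN1 was -0.40 and passed (adjusted p = 0.00981).

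Both regulators moved with siY/T, in opposite directions. NFE2L2 was at 62.2 and 63.2 CPM with siCtrl and 47.5 and 55.1 CPM with siY/T in DMSO, and it fell by 0.29 (SE 0.0673, adjusted p = 0.00221). KEAP1 was at 86.3 and 82.2 CPM with siCtrl and 102 and 96.2 CPM with siY/T, and it rose by 0.23 (SE 0.0555, adjusted p = 0.00274). The libraries of the 2 groups did not overlap for either gene, and neither change reached the fold used for calls. In Sorafenib KEAP1 rose by 0.28 (adjusted p = 0.000956), from 78.1 and 82.5 CPM to 98.6 and 97.1 CPM. NFE2L2 was at 53.2 and 49.0 CPM with siCtrl and 47.1 and 45.8 CPM with siY/T in Sorafenib, a change of -0.14 that did not pass (adjusted p = 0.113). That value passed with TMM scaling, quantile normalization, edgeR and DESeq2 (adjusted p from 0.0143 to 0.0276) and without siY/T DMSO replicate 1 or 2 (adjusted p = 0.0273 and 0.0276). In Sorafenib 1 of the 9 genes was called, TXNRD1, where 3.84% of tested genes were called lower and 6.11% higher. By adjusted p 5 fell and 1 rose, where 18.8% of tested genes fell and 30.2% rose, and the median of the 9 was -0.22 against 0.05 over all tested genes.

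**Figure D2:**
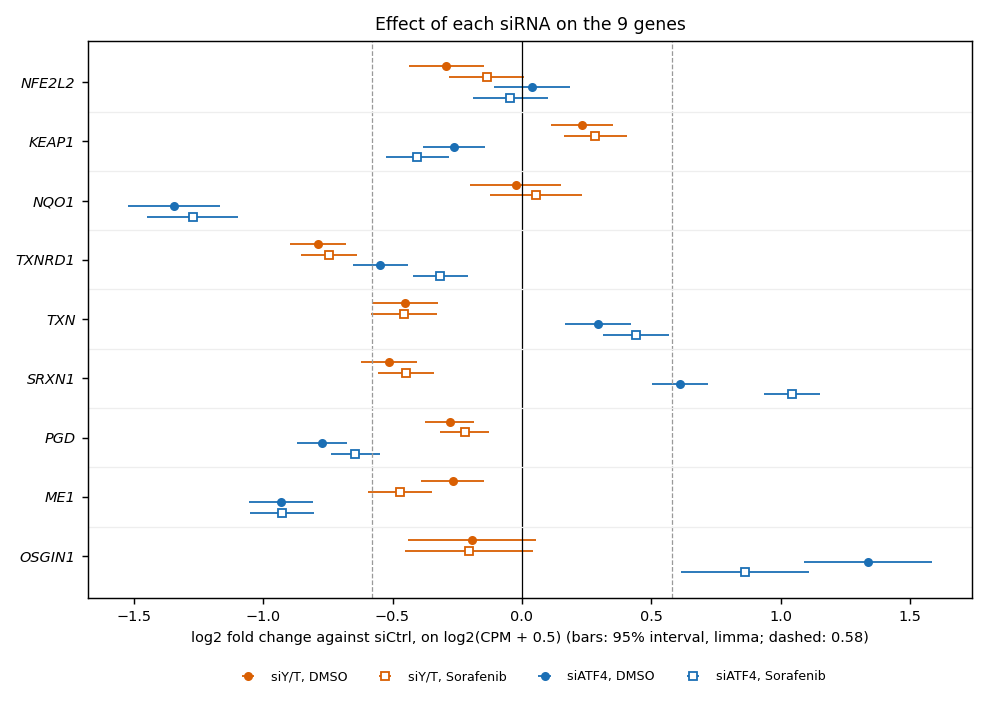
Log2 fold change of each of the 9 genes against siCtrl (horizontal axis, log2(CPM + 0.5) scale) for siY/T (orange) and siATF4 (blue), in DMSO (filled circles) and Sorafenib (open squares), with unadjusted 95% intervals from limma and dashed lines at the fold used for calls. Every siATF4 comparison used the same siCtrl libraries as the siY/T comparison of that treatment, and SRXN1 lay at -0.51 and -0.45 with siY/T and at 0.61 and 1.04 with siATF4.

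Loss of ATF4 split the 9 genes. NQO1, ME1 and PGD fell, SRXN1 and OSGIN1 rose, and all 5 were called in DMSO and again in Sorafenib. In DMSO 2 were called higher, where 8.57% of tested genes were, and 3 lower, where 14.1% were. In Sorafenib the counts were again 2 and 3, where 10.3% and 18.7% of tested genes were called higher and lower. By adjusted p alone 3 rose and 5 fell in each treatment, where 33.4% of tested genes rose and 34.4% fell in DMSO and 35.8% rose and 37.4% fell in Sorafenib. The median of the 9 was -0.26 in DMSO and -0.32 in Sorafenib, against -0.00 and -0.01 over all tested genes, and it averages over opposite changes. These comparisons share their siCtrl libraries with those of siY/T, and the difference between the 2 siRNAs was not tested.

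The largest falls were in genes for NADPH and quinone metabolism. NQO1 was at 243 and 218 CPM with siCtrl and at 97.0 and 84.3 CPM with siATF4 in DMSO, and at 187 and 180.4 CPM against 77.0 and 74.5 CPM in Sorafenib. Both siATF4 groups lay far below every library of the other 4 groups, with a change of -1.34 in DMSO (SE 0.0818, adjusted p = 1.25e-08) and -1.27 in Sorafenib (adjusted p = 1.39e-08). ME1 was at 14.9 and 15.7 CPM with siATF4 in DMSO and at 16.0 and 16.3 CPM in Sorafenib. It fell by 0.93 in both treatments (SE 0.0571, adjusted p = 1.35e-08 and 9.29e-09). PGD was at 105 and 104 CPM with siATF4 in DMSO and at 105 and 102 CPM in Sorafenib, changes of -0.77 (SE 0.0440, adjusted p = 6.53e-09) and -0.64 (adjusted p = 2.52e-08). As for NQO1, no siATF4 library of ME1 or PGD reached a library of the other groups.

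In the thioredoxin system the reductase fell while thioredoxin and sulfiredoxin rose. TXNRD1 was at 249 and 233 CPM with siATF4 in DMSO and at 211 and 196 CPM in Sorafenib, below the siCtrl libraries of the same treatment. It fell by 0.55 (SE 0.0497, adjusted p = 5.46e-07) in DMSO and by 0.32 in Sorafenib (adjusted p = 7.16e-05), and was not called except without siATF4 DMSO replicate 1, at -0.59. TXN, at 202 and 189.8 CPM with siATF4 in DMSO and 177 and 177 CPM in Sorafenib, rose by 0.29 (SE 0.0589, adjusted p = 0.000642) and 0.44 (adjusted p = 1.63e-05). SRXN1 was at 319 and 318 CPM with siATF4 in DMSO and at 267 and 275 CPM in Sorafenib. These 4 libraries were the highest of the 12 for SRXN1, which rose by 0.61 (SE 0.0501, adjusted p = 2.02e-07) in DMSO and by 1.04 (adjusted p = 9.32e-10) in Sorafenib.

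OSGIN1 rose most in DMSO, from 4.48 and 5.30 CPM to 13.4 and 12.8 CPM, a change of 1.34 (SE 0.115, adjusted p = 3.10e-07). In Sorafenib it was at 5.44 and 6.57 CPM with siCtrl and 10.6 and 12.1 CPM with siATF4, a change of 0.86 (adjusted p = 1.52e-05). All 4 siATF4 libraries of OSGIN1 lay above the other 8. NFE2L2 did not pass the test with siATF4. Its levels were 62.8 and 66.1 CPM in DMSO and 50.7 and 48.2 CPM in Sorafenib, overlapping siCtrl in both, and the change was 0.04 with a 95% interval of -0.11 to 0.18 in DMSO and -0.05 (adjusted p = 0.561) in Sorafenib. KEAP1 was at 69.6 and 70.7 CPM with siATF4 in DMSO and at 57.5 and 63.7 CPM in Sorafenib. It fell by 0.26 (SE 0.0555, adjusted p = 0.000954) and by 0.40 (adjusted p = 2.06e-05), where it had risen with siY/T.

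Sorafenib itself raised none of the 9 genes by adjusted p. In siCtrl cells 6 of the 9 fell and 0 rose, where 26.9% of tested genes fell and 36.3% rose, and the median of the 9 was -0.29 against 0.05 over all tested genes. At an unadjusted p under 0.05 the counts were 6 lower and 1 higher (OSGIN1), and edgeR and DESeq2 raised 0 by adjusted p. In the calls by fold 1 gene was lower and 0 were higher, where 5.15% and 12.3% of tested genes were. It was SRXN1, which went from 208 and 208 CPM in DMSO to 131 and 131 CPM in Sorafenib, a fall of 0.66 (SE 0.0501, adjusted p = 1.78e-07). TXNRD1 went from 353 and 353 to 258 and 249 CPM, a fall of 0.48 (adjusted p = 2.82e-06). TXN fell by 0.29 (adjusted p = 0.000758), NFE2L2 by 0.30 (adjusted p = 0.00189) and NQO1 by 0.33 (adjusted p = 0.00358). NQO1 missed the threshold without siCtrl DMSO replicate 1 (adjusted p = 0.0530). PGD fell by 0.14 (adjusted p = 0.0143) and missed the threshold under quantile normalization (adjusted p = 0.169) and without siCtrl DMSO replicate 1 or siCtrl Sorafenib replicate 2 (adjusted p = 0.0827 and 0.0864). KEAP1 at -0.07 and ME1 at 0.08 did not pass (adjusted p = 0.295 and 0.268). OSGIN1 was at 0.27 and did not pass either (adjusted p = 0.0541). It did pass without any 1 of 6 other libraries (adjusted p from 0.0250 to 0.0470), namely siCtrl DMSO replicate 2, siCtrl Sorafenib replicate 1 or a siY/T library.

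In siY/T cells Sorafenib lowered 4 of the 9 genes and raised 0, where 23.5% of tested genes fell and 29.5% rose, and the median was -0.14 against 0.04 over all tested genes. At an unadjusted p under 0.05, 5 were lower and 1 higher (OSGIN1). SRXN1 was the 1 called, where 4.14% of tested genes were called lower and 5.83% higher. It went from 155 and 137 CPM to 96.4 and 95.5 CPM, a fall of 0.60 (adjusted p = 8.82e-07), and without siY/T DMSO replicate 1 the change was -0.51 and no gene was called. TXNRD1 fell by 0.44 (adjusted p = 1.30e-05) and TXN by 0.29 (adjusted p = 0.00105). NQO1 fell by 0.25 (adjusted p = 0.0217), but its 2 DMSO libraries, 248 and 207 CPM, differed by more than the change. It missed the threshold with no filter on low genes (adjusted p = 0.0642), without siY/T DMSO replicate 1 (adjusted p = 0.179) and without siY/T Sorafenib replicate 1 or 2 (adjusted p = 0.0827 and 0.0757). NFE2L2 changed by -0.14 (adjusted p = 0.100), and passed with TMM scaling and edgeR (adjusted p = 0.0437 and 0.0427) and without siY/T DMSO replicate 1 (change -0.25, adjusted p = 0.00301). ME1 at -0.13 (adjusted p = 0.0741) passed with TMM scaling, quantile normalization and edgeR (adjusted p from 0.0257 to 0.0435). OSGIN1 at 0.26 (adjusted p = 0.0716) and PGD at -0.08 (adjusted p = 0.143) each passed without 1 library, siY/T Sorafenib replicate 1 for OSGIN1 (adjusted p = 0.0368) and replicate 2 for PGD (adjusted p = 0.0369). KEAP1 stood at -0.02.

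In siATF4 cells Sorafenib lowered 5 of the 9 genes and raised 0, where 22.4% of tested genes fell and 27.9% rose. At an unadjusted p under 0.05, 6 were lower (with TXN) and 0 higher. The median of the 9 was -0.21 against 0.03 over all tested genes. At the fold used for calls 0 of the 9 passed, in limma, edgeR and DESeq2 alike, where 2.95% of tested genes were called lower and 5.68% higher. NFE2L2 fell most, by 0.38 (adjusted p = 0.000478), from 62.8 and 66.1 CPM to 50.7 and 48.2 CPM. TXNRD1 fell by 0.25 (adjusted p = 0.00121) and SRXN1 by 0.23 (adjusted p = 0.00188), while KEAP1 fell by 0.21 (adjusted p = 0.00680) and missed the threshold without siATF4 Sorafenib replicate 1 (adjusted p = 0.0929). NQO1 fell by 0.25 (adjusted p = 0.0199), and missed the threshold with no filter (adjusted p = 0.0618) and without siATF4 DMSO replicate 1 (adjusted p = 0.212) or siATF4 Sorafenib replicate 1 or 2 (adjusted p = 0.0586 and 0.101). TXN at -0.15 just missed the threshold (adjusted p = 0.0537) and passed with TMM scaling, edgeR and DESeq2 (adjusted p from 0.0192 to 0.0294) and without siY/T DMSO replicate 1 or 2 (adjusted p = 0.00328 and 0.00321). PGD at -0.01, ME1 at 0.08 and OSGIN1 at -0.21 did not pass.

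**Figure D3:**
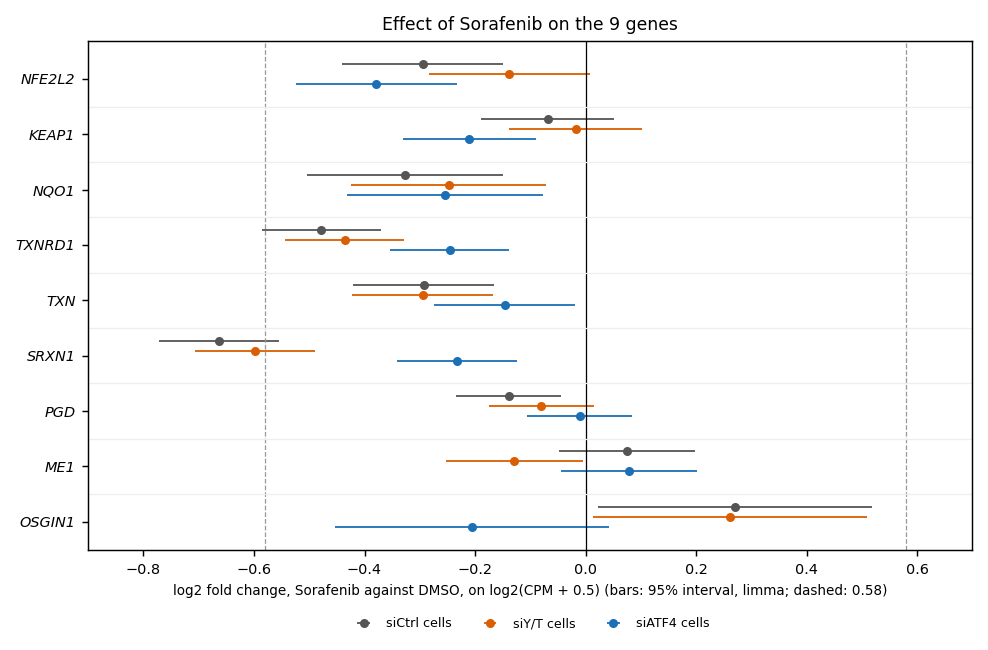
Log2 fold change of each of the 9 genes in Sorafenib against DMSO (horizontal axis, log2(CPM + 0.5) scale) in siCtrl (grey), siY/T (orange) and siATF4 (blue) cells, with unadjusted 95% intervals from limma and dashed lines at the fold used for calls. SRXN1 lay at -0.66, -0.60 and -0.23 in the 3 backgrounds, and OSGIN1 at 0.27, 0.26 and -0.21.

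The effect of each siRNA was compared between Sorafenib and DMSO by an interaction term. For siY/T 0 of the 9 genes passed in limma, edgeR and DESeq2, where 22% of all tested genes did. At an unadjusted p under 0.05 the only one was ME1, with a difference of -0.20 (SE 0.0807, adjusted p = 0.0879). Without siY/T DMSO replicate 1 SRXN1 passed (difference 0.15, adjusted p = 0.0491), and without siY/T DMSO replicate 2 NFE2L2 did (difference 0.26, adjusted p = 0.0154). For siATF4 3 of the 9 passed, where 41.1% of tested genes did. The rise of SRXN1 with siATF4 was larger in Sorafenib than in DMSO, by 0.43 (SE 0.0708, adjusted p = 0.000409), and it passed in every alternative run. The fall of TXNRD1 was smaller in Sorafenib, by 0.23 (SE 0.0703, adjusted p = 0.0187), and the rise of OSGIN1 was smaller, with a difference of -0.48 (SE 0.162, adjusted p = 0.0319). TXNRD1 missed the threshold under quantile normalization (0.11, adjusted p = 0.244) and without either siCtrl DMSO library, siATF4 Sorafenib replicate 1, siATF4 DMSO replicate 2 or siCtrl Sorafenib replicate 2 (adjusted p from 0.0540 to 0.0906). OSGIN1 missed it under quantile normalization (-0.27, adjusted p = 0.215), with no filter (adjusted p = 0.0857) and without siCtrl DMSO replicate 1, either siATF4 DMSO library, siATF4 Sorafenib replicate 1 or siCtrl Sorafenib replicate 2 (adjusted p from 0.0572 to 0.141). TXN, at 0.15 (adjusted p = 0.178), passed without siY/T DMSO replicate 1 or 2 (adjusted p = 0.0324 and 0.0320), and KEAP1, at -0.14 (adjusted p = 0.168), passed without siATF4 Sorafenib replicate 2 (adjusted p = 0.0490).

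Over the 12 libraries the 9 genes did not share 1 pattern. Pearson's r of log2(CPM + 0.5) was 0.97 between PGD and ME1 and 0.97 between TXN and SRXN1. NQO1 went with PGD (r = 0.92) and against OSGIN1 (r = -0.95). NFE2L2 went with TXNRD1 (r = 0.73), and its r with NQO1 was -0.12 and with ME1 -0.10. These values describe 12 libraries in 6 groups that share a cell line and treatments, so the points are not independent. Among 11151 genes compared, those whose pattern was most like that of NFE2L2 were MYO1D (r = 0.94), PHACTR2 (r = 0.94) and G3BP1 (r = 0.93). For NQO1 they were MSRB1 (r = 0.99), KHDRBS1 (r = 0.99) and RWDD1 (r = 0.99). For TXNRD1 they were TSC22D2 (r = 0.95), UGCG (r = 0.94) and OAZ1 (r = 0.94).

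**Figure D4:**
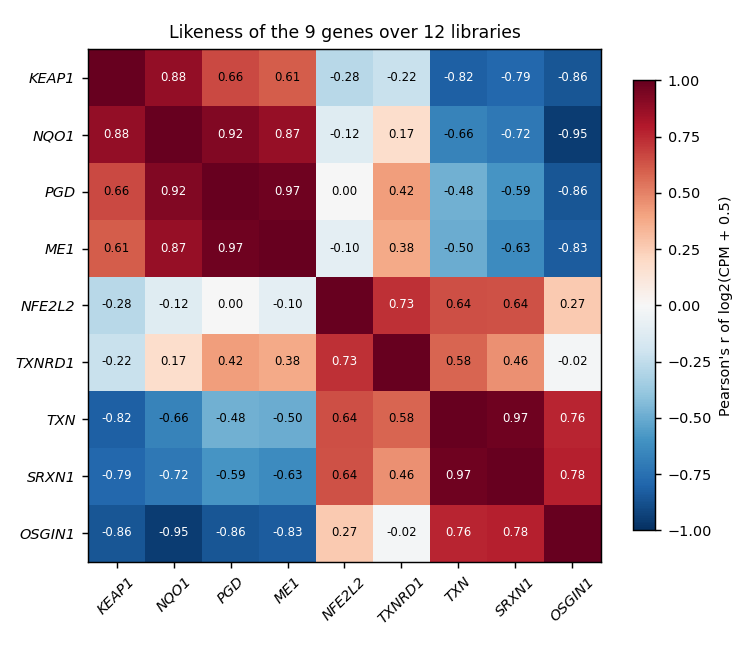
Pearson's r between the log2(CPM + 0.5) values of each pair of the 9 genes over the 12 libraries, printed in each cell and coloured from -1 (blue) to 1 (red). KEAP1, NQO1, PGD and ME1 formed 1 block with r from 0.61 to 0.97, and TXN, SRXN1 and OSGIN1 another with r from 0.76 to 0.97.

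The rest of the pathway was read from 4 lists that share a few genes. Of the 13 partners and regulators of NRF2, all tested, 0 were called higher and 2 lower with siY/T in each treatment, where 11% and 3.61% of all tested genes were in DMSO and 6.11% and 3.84% in Sorafenib. With siATF4 4 were called higher in DMSO and 3 in Sorafenib, where 8.57% and 10.3% of all tested genes were, and 0 were called lower in either, where 14.1% and 18.7% were. MAFF, a small MAF partner of NRF2, was at 3.06 and 3.01 CPM with siCtrl and 22.6 and 24.3 CPM with siATF4 in Sorafenib, a rise of 2.76 (SE 0.103, adjusted p = 1.02e-10), and MAFG, another small MAF, rose by 0.96 in DMSO (adjusted p = 2.35e-09). NFE2L3, a relative of NRF2, rose by 0.98 with siATF4 in Sorafenib (adjusted p = 2.10e-07). SQSTM1, which encodes p62, a scaffold that sequesters KEAP1, was at 441 and 425 CPM with siCtrl and 894 and 939 CPM with siATF4 in DMSO, a rise of 1.08 (SE 0.0428, adjusted p = 2.37e-10). In Sorafenib it was at 636 and 622 CPM against 524 and 553 CPM, a fall of 0.22 (adjusted p = 0.000367), and the difference between the treatments was -1.30 (adjusted p = 1.23e-07). The median of the list with siATF4 was 0.33 in DMSO and 0.24 in Sorafenib, against -0.00 and -0.01 over all tested genes.

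Of 26 other NRF2 target genes 21 were tested, and AKR1B10, AKR1C2, GPX2, ALDH3A1 and UGT1A6 stayed under 1 CPM in every library. With siATF4 1 was called higher and 8 lower in DMSO, where 8.57% and 14.1% of all tested genes were, and the list's median was -0.28 against -0.00. In Sorafenib 2 were called higher and 9 lower, where 10.3% and 18.7% of all tested genes were, with a median of -0.44 against -0.01. With siY/T 3 were called higher and 3 lower in DMSO (11% and 3.61% of all tested genes), and 2 higher and 4 lower in Sorafenib (6.11% and 3.84%), with medians of 0.06 and -0.08 against 0.07 and 0.05. HMOX1, which encodes haem oxygenase 1, was at 98.5 and 92.4 CPM with siCtrl and 440.3 and 387 CPM with siATF4 in DMSO, a rise of 2.11 (SE 0.0945, adjusted p = 7.03e-10). ABCC2, an export pump for conjugates, fell by 1.75 in DMSO (adjusted p = 1.24e-09). For SLC7A11, the cystine carrier, the study reported lower mRNA in HLE cells with siRNA against ATF4 or against YAP/TAZ, but not against NRF2. Here SLC7A11 was at 64.5 and 67.1 CPM with siCtrl and 14.2 and 13.1 CPM with siATF4 in Sorafenib, a fall of 2.23 (SE 0.143, adjusted p = 1.40e-08). It was also lower with siY/T, at 25.3 and 16.2 CPM in Sorafenib. In DMSO it was at 7.67 and 8.16 CPM with siY/T and 24.7 and 21.7 CPM with siCtrl. AKR1C3, an aldo-keto reductase, was at 9.70 and 9.57 CPM with siCtrl and 0.493 and 0.342 CPM with siATF4 in Sorafenib, a change of -3.47 (adjusted p = 1.25e-10). With siY/T AKR1C3 went the other way, to 23.8 and 28.1 CPM in Sorafenib. In DMSO it was at 2.11 and 2.88 CPM with siCtrl and 16.1 and 14.3 CPM with siY/T. It belongs to a family of closely related genes, and how far reads were shared among them was not tested. In this list too, genes fell and rose with the same siRNA. Sorafenib moved this list otherwise than the 9 genes in siCtrl cells. Of the 21 tested, 5 were called higher and 0 lower, where 12.3% and 5.15% of all tested genes were. By adjusted p 11 rose and 5 fell, where 36.3% and 26.9% of all tested genes did, and the median was 0.27 against 0.05.

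Of the 10 tested genes of the thioredoxin and peroxiredoxin system, 1 was called higher and 2 lower with siATF4 in DMSO (8.57% and 14.1% of all tested genes) and 0 and 2 in Sorafenib (10.3% and 18.7%). With siY/T 0 were called in DMSO, where 11% of all tested genes were called higher and 3.61% lower. In Sorafenib 1 was called with siY/T, higher, where 6.11% of all tested genes were called higher and 3.84% lower. It was TXNIP, also the gene called higher with siATF4 in DMSO. The levels of TXNIP were low, from 0.556 to 2.99 CPM over the 12 libraries. By adjusted p 3 rose and 3 fell with siY/T in DMSO, where 37.3% and 22.8% of all tested genes did. The list's medians were 0.08 and 0.06 with siATF4 in DMSO and Sorafenib, against -0.00 and -0.01 over all tested genes, and -0.02 and -0.00 with siY/T, against 0.07 and 0.05. PRDX1, the most abundant cytosolic partner of thioredoxin, was at 904 and 902 CPM with siCtrl and 496 and 463 CPM with siATF4 in DMSO, a fall of 0.91 (SE 0.0515, adjusted p = 6.00e-09), and PRDX6 fell by 0.63 (adjusted p = 4.44e-08). PRDX2 is listed at 0 in all 12 libraries and was not tested. Of 12 other NADPH-producing enzymes, 1 was called higher and 3 lower with siATF4 in DMSO (8.57% and 14.1% of all tested genes), and 1 higher and 4 lower in Sorafenib (10.3% and 18.7%). By adjusted p 5 rose and 5 fell in each treatment. Of all tested genes 33.4% rose and 34.4% fell in DMSO, and 35.8% and 37.4% in Sorafenib. The list's medians were -0.05 and -0.03 against -0.00 and -0.01. IDH1, the cytosolic isocitrate dehydrogenase, was at 77.1 and 82.4 CPM with siCtrl and 31.1 and 29.7 CPM with siATF4 in DMSO, a fall of 1.38 (SE 0.0596, adjusted p = 5.18e-10). Its mitochondrial counterpart IDH2 fell by 1.37 (adjusted p = 6.22e-11) and TKT, a transketolase of the pentose phosphate pathway, by 0.95 (adjusted p = 2.23e-10) in Sorafenib. RPIA, an isomerase of the same pathway, rose by 0.86 (adjusted p = 1.05e-07). With Sorafenib in siCtrl cells 0 of the 13 partners and regulators were called higher and 1 lower. The counts were 0 and 0 of the 10 thioredoxin and peroxiredoxin genes, and 1 and 0 of the 12 NADPH-producing enzymes. Of all tested genes 12.3% and 5.15% were called higher and lower.

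**Figure D5:**
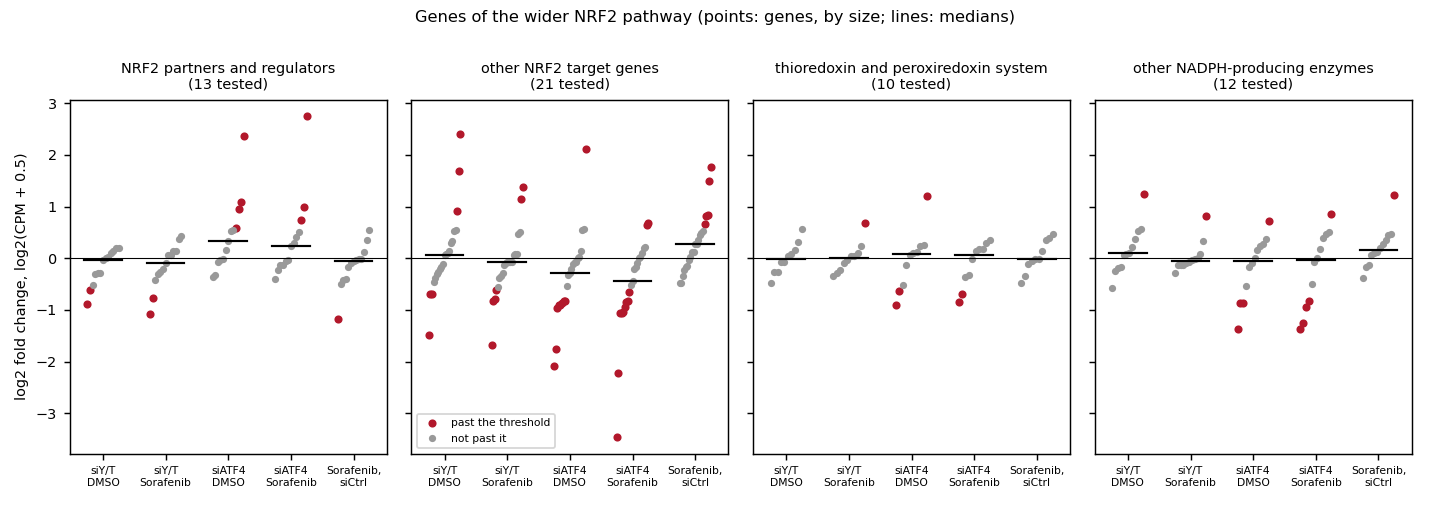
Log2 fold change (vertical axis, log2(CPM + 0.5) scale) of the tested genes of the 4 pathway lists in 5 comparisons, with a point per gene in order of size, red where called, and lines at list medians. The highest point among the partners with siATF4 is MAFF and the lowest among the other targets is AKR1C3, at -3.47.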

How the data were processed

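Poly(A)-selected RNA of 12 libraries was sequenced with a stranded kit. The authors aligned reads to hg19 with STAR, counted uniquely aligned reads over RefSeq exons and deposited CPM, which sum to 1000000 in each library. Depth was 41408348 to 53619732 reads (median 47939446), and 100% of the CPM values came back as whole reads within 0.001 read.

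The 13515 of 26258 genes that reached 1 CPM in 2 or more libraries entered limma 3.58.1 (R 4.3.3) on log2(CPM + 0.5), with 1 coefficient per group, 7 comparisons and 2 interaction terms, and Benjamini-Hochberg adjustment over all tested genes. Calls used the study's limits, p under 0.05 and a log2 fold change of at least 0.58. Alternatives were pseudocounts of 0.1 and 1, no filter, a filter at 5 CPM, TMM scaling, quantile normalization, a replicate block, edgeR 4.0.16 and DESeq2 1.42.0 on whole reads, adjusted p at any fold, and each library left out.

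The members and lists were chosen with earlier results of these data known. Named were the 9 members, the siRNA targets, up to 4 genes per list with the largest called change, a mean of at least 5 CPM and libraries that did not overlap, and the 3 genes most like NFE2L2, NQO1 and TXNRD1. The study's methods describe RNA extraction from biological replicates, more per condition than the 2 libraries of each group analysed here. The labels do not tie these libraries to separate cultures, so p-values measure only the spread between them, which may be technical. The scripts were tested on simulated data.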

Additional observations from a re-analysis of the deposited data

Results flagged for a closer look

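The effect of siATF4 differed between Sorafenib and DMSO for 3 of the 9 genes, by the interaction term of limma with adjustment over all tested genes. Of all tested genes 41.1% passed the same term. For SRXN1 the difference was 0.43 (SE 0.0708, adjusted p = 0.000409). For TXNRD1 it was 0.23 (SE 0.0703, adjusted p = 0.0187). For OSGIN1 it was -0.48 (SE 0.162, adjusted p = 0.0319). ATF4 itself was lowered more by siATF4 in Sorafenib than in DMSO (difference -1.14, adjusted p = 2.84e-07), and WWTR1 changed by -0.70 with siATF4 in DMSO and by -0.09 in Sorafenib, a difference of 0.61 (adjusted p = 0.00206). The part of these 2 shifts in the differences of the 3 genes was not tested.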

How the results depend on the processing

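By adjusted p at any fold the number of the 9 genes that passed was 7 and 6 with siY/T in DMSO and Sorafenib, 8 and 8 with siATF4, and 6, 4 and 5 for Sorafenib in siCtrl, siY/T and siATF4 cells. Of all tested genes 37.3% rose and 22.8% fell with siY/T in DMSO, and 30.2% and 18.8% in Sorafenib. With siATF4 these shares were 33.4% and 34.4% in DMSO, and 35.8% and 37.4% in Sorafenib. For Sorafenib they were 36.3% and 26.9% in siCtrl, 29.5% and 23.5% in siY/T, and 27.9% and 22.4% in siATF4 cells. DESeq2 called 2 genes (TXNRD1 and SRXN1) with siY/T in DMSO in place of 1, and quantile normalization left 1 of the 3 differences of the siATF4 effect (SRXN1). Leaving out each library in turn gave 1 to 2 calls with siY/T in DMSO, 5 to 6 with siATF4 in DMSO, 0 to 1 for Sorafenib in siY/T cells, 0 to 1 for the difference of the siY/T effect and 1 to 4 for that of the siATF4 effect, and left the other counts as they were. For the 2 differences the counts are by adjusted p at any fold. A group left with 1 library was assumed to vary like the others. Pseudocounts of 0.1 and 1, TMM scaling, edgeR and a filter at 5 CPM left every count of called members within 1.5 times, and 0 called changes reversed. The cause of these shifts was not tested.

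Libraries with the same replicate number tended to deviate together within a treatment but not between treatments. Over 15 pairs of groups r ran from -0.39 to 0.30, and 5 were over 0.1. Within DMSO r was 0.06 to 0.30 and within Sorafenib 0.15 to 0.30, while between treatments it was -0.39 to 0.03. The replicate block used the same term in both treatments, so it cannot take up a pairing that differs between them. With the number as a replicate block the counts of called members stayed at 1, 1, 5, 5, 1, 1 and 0 in the 7 comparisons and at 0 and 3 for the differences. In the block, 3 changes now passed, TXN with Sorafenib in siATF4 cells (adjusted p = 0.0474) and OSGIN1 with Sorafenib in siCtrl and siY/T cells (adjusted p = 0.0344 and 0.0472).

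Scaling moved the split of all called genes: with siY/T in DMSO 75.3% were higher, against 66.4% with TMM and 57% with quantile normalization, and for Sorafenib in siCtrl cells 70.5%, against 65.7% and 52.3%. With siATF4 in Sorafenib 35.4% were higher, against 48.5% with quantile normalization. For Sorafenib in siY/T and siATF4 cells 58.5% and 65.8% were higher, against 46.9% and 54.7% with quantile normalization. By the same limits of p and fold, edgeR on whole reads called 2238 genes with siY/T in DMSO against 1973 with limma, 1606 against 1345 with siY/T in Sorafenib, 3501 against 3068 and 4292 against 3911 with siATF4, and 2697 against 2361, 1647 against 1348 and 1536 against 1167 for Sorafenib in siCtrl, siY/T and siATF4 cells. By adjusted p at any fold 2978 of all tested genes passed the siY/T difference, against 1581 without siCtrl DMSO replicate 2, 1623 without siCtrl Sorafenib replicate 2, 1949 without siY/T Sorafenib replicate 1 and 4575 without siY/T DMSO replicate 2. Each of the 9 genes had at least 170 reads in every library, and the 2 libraries per group limit the precision.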

Other observations

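MAFF and GCLM, the modifier subunit of the enzyme that starts glutathione synthesis, moved in the same directions as SRXN1 and were picked after their values were seen. GCLM was at 46.8 and 48.5 CPM with siCtrl, 29.7 and 29.0 CPM with siY/T and 72.1 and 69.4 CPM with siATF4 in DMSO. It fell by 0.69 with siY/T (limma, adjusted p = 1.77e-07) and by 0.47 with Sorafenib in siCtrl cells (adjusted p = 4.02e-06), and rose by 0.57 with siATF4 (adjusted p = 5.33e-07). MAFF fell by 0.88 with siY/T in DMSO (adjusted p = 9.70e-06) and by 1.18 with Sorafenib in siCtrl cells (adjusted p = 6.08e-07), and rose by 2.37 with siATF4 in DMSO (adjusted p = 5.36e-10). The 3 comparisons share the siCtrl DMSO libraries.

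HMOX1 was at 440.3 and 387 CPM with siATF4 in DMSO and at 138 and 154 CPM with siATF4 in Sorafenib, a fall of 1.50 with Sorafenib (adjusted p = 8.86e-08), and in siCtrl cells its change with Sorafenib was -0.04 (adjusted p = 0.727). The difference of the siATF4 effect between treatments was -1.46 for HMOX1 (adjusted p = 5.65e-06).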
